A study of Danio rerio with 4 samples.

Results

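The cells compared here were those that the authors' annotation of the zebrafish heart names “Endothelial precursors” and “Endothelial cells”. They were taken by that annotation alone, which gave 1253 Endothelial precursors (precursors from here on) and 10612 Endothelial cells out of 34676 annotated cells in 18 clusters and 52447 barcodes in all. For each of the 4 libraries, the raw UMIs (unique molecular identifiers, one per captured transcript) of each gene were added up within each group, and the sums of the 2 groups were compared inside each library, giving 4 pairs.

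Whole hearts were taken at 48 and 72 hours post fertilization (hpf) from double transgenic zebrafish, which carried Tg(myl7:mRFP), a myocardial reporter, and either sqet31Et or sqet33mi59BEt, enhancer traps with EGFP in the pacemaker regions. Each library is a pool of hearts of 1 line at 1 stage. The authors call the 2 lines of a stage pseudo-replicates, so the spread between libraries holds the difference between lines and between stages as well as that between pools. Precursors and Endothelial cells of a library came from the same pool, droplet run and sequencing. Both groups were found by clustering these same cells on their expression, so a p-value below measures how evenly a difference repeats over the 4 libraries and does not test whether the clusters exist. Where 4 values follow each other, the first pair is from 48 hpf and the last pair from 72 hpf, and each pair gives sqet31Et before sqet33mi59BEt.

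The endocardium is the endothelial lining of the heart lumen, and it is joined to the vessels through which blood enters and leaves. Endothelial cells are held together by VE-cadherin (Cdh5), carry the receptor Tie1 and depend on ETS factors such as Fli1. A cell that divides copies its DNA in S phase, for which the MCM helicase is loaded in G1, and then builds the spindle and separates its chromosomes in G2 and M phase under the control of Cdk1 and cyclin B. Many transcripts of these phases are made only while they are needed, so a group with more cells in one phase carries more of that phase's transcripts.

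The files held between 235 and 382 precursors and between 2070 and 3493 Endothelial cells per library. The summed UMIs per library ranged from 405194 to 1678483 in precursors and from 2897642 to 12312693 in Endothelial cells. The median UMIs per cell were 6451, 3997, 1888 and 1034 in precursors and 4364, 5611, 1821 and 868 in Endothelial cells. Precursors were deeper in 3 of 4 libraries, and the medians did not differ beyond the spread of the pairs (exact sign-flip permutation test, two-sided p = 0.625, where 0.125 is the smallest possible p). The median mitochondrial share of a cell's UMIs was 1.68, 2.57, 16.2 and 7.16% in precursors against 2.30, 2.98, 15.0 and 7.83% in Endothelial cells (p = 0.875 in the same exact test). Of the barcode sequences of the 2 groups, 18 occurred in more than 1 library. All cells of both groups bear the authors' singlet mark.

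The endothelial label was checked first. The level of a gene is given in CPM, its UMIs per 1000000 UMIs of its group in a library. Cdh5 transcripts stood at 1279, 1383, 894 and 1473 CPM in precursors and at 1675, 1597, 1547 and 2381 CPM in Endothelial cells. Tie1 transcripts stood at 297, 320, 228 and 304 CPM against 391.96, 409, 345 and 470 CPM. Both endothelial genes were thus present in precursors of every library and lower than in every library of Endothelial cells. The level of *fli1* was 145, 228, 156 and 178 CPM in precursors and 119, 221, 150 and 172 CPM in Endothelial cells, and the groups overlapped. A UMI of *cdh5* was found in 69.8% of precursors and 87.2% of Endothelial cells, against 25.5% of Erythrocytes, a type that should lack it, with median depths of 2158, 1833 and 667 UMIs. With each cell thinned to 500 UMIs, the shares were 37.4, 55.5 and 17.1%, and no cell was too shallow for this. In sums, fewer cells with a transcript and less of it per cell cannot be told apart.

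Markers of other tissues were summed over fixed lists. The summed level of 23 cardiomyocyte genes ranged from 1348 to 1831 CPM in precursors and from 1425 to 2498 CPM in Endothelial cells, that of 16 erythrocyte genes from 323 to 2848 and from 309 to 2883 CPM, and that of 23 leukocyte genes from 100.3 to 392.4 and from 143 to 223 CPM. The 19 epithelial genes, among them keratins, summed to between 2941 and 12767 CPM in precursors and between 5893 and 13384 CPM in Endothelial cells, and were lower in precursors in 4 of 4 libraries. By library the leukocyte genes summed to 100.3, 125.7, 321.6 and 392.4 CPM in precursors and to 150.8, 142.7, 163.5 and 223.3 CPM in Endothelial cells. In precursors they were thus lower at 48 hpf and higher at 72 hpf. Of these 23 genes *c1qa*, *csf1ra* and *mmp13a* were at 0 in precursors, and 2 genes of the list were at 0 in Endothelial cells. The 29 genes of blood formation are taken up below, since a small set of cells carried much of their level at 72 hpf. The part of these markers in the differences was not tested, other than for that set of cells.

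The groups differed in how many cells carried mitosis transcripts. In the authors' phase calls, 1156 precursors were in G2M, 94 in S and 3 in G1, whereas of the Endothelial cells 1566 were in G2M, 2409 in S and 6637 in G1. Phase calls are relative scores, so UMIs were counted as well. Over 18 mitosis genes (*top2a*, *mki67*, *cdk1*, *nusap1*, *birc5a*, *tpx2*, *ube2c*, *ccnb1*, *aurkb*, *kif11*, *bub1*, *ndc80*, *nuf2*, *cenpf*, *tacc3*, *plk1*, *ccna2* and *kifc1*), 3 or more UMIs were found in 97.9, 96.1, 91.1 and 78.8% of precursors and in 5.36, 9.15, 2.26 and 1.23% of Endothelial cells. The cluster named “Proliferating cells” lay between, with 55.6, 37.9, 35.2 and 22.0%. The share was higher at 48 hpf than at 72 hpf in each of these clusters, and cells of precursors and Endothelial cells were deeper at 48 hpf. This class is a range rather than a type, since 117 precursors and 764 Endothelial cells held 2 or 3 such UMIs, next to the threshold.

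**Figure D1:**
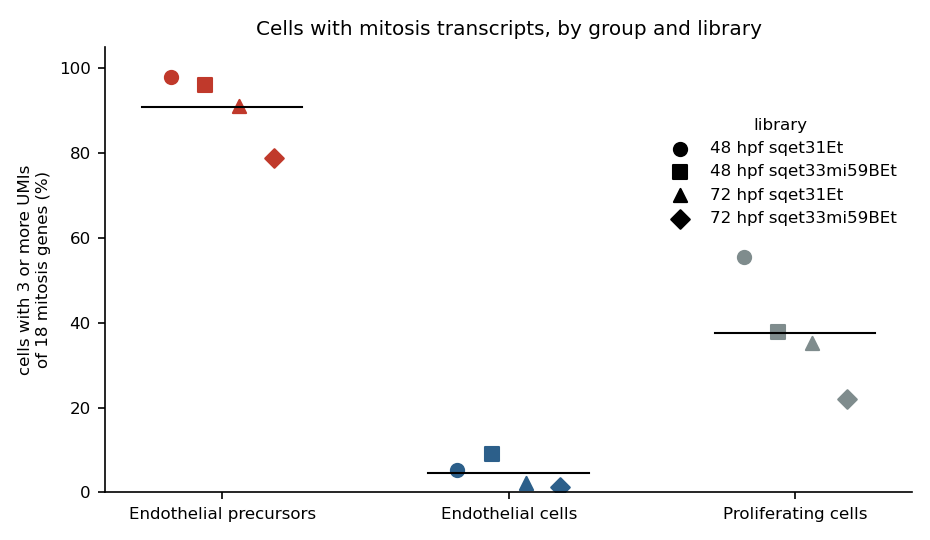
Share of cells (%) with 3 or more UMIs of 18 mitosis genes, by group, with 1 point per library and a line at the mean of the 4 libraries. Precursors lie between 78.8 and 97.9%, and Endothelial cells between 1.23 and 9.15%.

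Over all cells, precursors differed from Endothelial cells in 1627 of 8987 genes tested, which is 18.1% (edgeR quasi-likelihood test with the library as a block, Benjamini-Hochberg adjusted p under 0.05, a gene past this being termed called here). Of these, 1008 were higher in precursors (11.2%) and 619 lower (6.89%). The cell cycle lists held 299 tested genes, of which 233 rose and 9 fell, with a median difference of 1.95 on the log2 scale beside -0.04 over all genes. Outside these lists 775 genes rose and 610 fell, out of 8688 tested. Without the pairing by library, 516 genes were higher and 39 lower, so most of the falls rest on the comparison within libraries. The split of the calls depended on scaling. Under library totals without scaling factors, the median over all genes moved from -0.04 to -0.17, and 818 genes were called higher (9.1%) and 1164 lower (13%), 22.1% in all. Differences below are from the scaled fit, and each direction named was checked under totals.

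Mitosis genes were among those that rose most. The level of *top2a*, the topoisomerase that untangles sister chromatids, was 747, 658, 902 and 1306 CPM in precursors and 18.1, 16.2, 19.1 and 26.2 CPM in Endothelial cells. The 4 values of precursors all lay far above the 4 of Endothelial cells (log2 difference 5.59 ± 0.13 (SE), edgeR adjusted p = 3.5e-14). Of all 8987 genes tested, 1084 did not overlap between the groups. The other cell cycle genes with the largest rises were *tacc3*, *fbxo5*, *cdk1*, *nuf2* and *kifc1*, with log2 differences from 5.40 to 5.71. They serve the spindle (*tacc3*, *kifc1*), the kinetochore (*nuf2*), entry into mitosis (*cdk1*) and the restraint of the anaphase-promoting complex (*fbxo5*). Of 51 tested genes of the G2M list, 50 rose and none fell (median 4.67), and *mki67* rose by 4.95 ± 0.15 on the log2 scale. Of the 21 tested genes of the DNA repair list 15 rose, and of the 43 of the histone and chromatin list 28 rose, among them *dek* and *hmgn2*. Over all genes tested 11.2% rose and 6.89% fell.

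The S phase list was divided. Of its 42 tested genes 27 rose and 7 fell in precursors, with a median of 1.13, where 11.2% of all genes rose and 6.89% fell. The ribonucleotide reductase subunit *rrm1*, the helicase *blm* and the polymerase clamp *pcna* were among the risers (log2 differences 2.81, 4.39 and 1.72). In contrast, 5 of the 6 tested genes of the MCM helicase were lower in precursors, where 6.89% of all genes were. The level of *mcm2* was 13.6, 11.9, 28.8 and 29.6 CPM in precursors against 74.7, 79.8, 109 and 108 CPM in Endothelial cells. The level of *mcm5* was 5.46, 10.7, 42.1 and 34.6 CPM against 53.3, 52.1, 80.7 and 121 CPM. For both genes every library of precursors was below every library of Endothelial cells (log2 differences -2.14 ± 0.18 and -1.77 ± 0.25, edgeR adjusted p = 8.4e-08 and 5.4e-05). *mcm3*, *mcm4* and *mcm6* (ENSDARG00000057683) fell by 1.04, 1.27 and 1.24 on the log2 scale, and *mcm7*, at no more than 8.22 CPM in either group, was at -0.10 ± 0.34 and not called. The other S phase genes that fell were *casp8ap2* (-1.65) and *hells* (-1.08). Among cells with 3 or more mitosis UMIs 5 of 5 tested MCM genes were lower in precursors (median -1.60), where 1.69% of all genes were. In the cycling cells of other clusters, compared below, none of 6 was called (median -0.39), where 1.12% of all genes were lower. The difference between these comparisons was not tested. Within Endothelial cells alone, the 6 genes were all higher in S- or G2M-called than in G1-called cells, with a median of 2.58, where 8.47% of all genes were higher and 7.52% lower. The MCM genes are part of what phase calls are made from, so this last value describes those calls. A UMI of *mcm2* was found in 5.03% of precursors, 16.8% of Endothelial cells and 6.89% of Erythrocytes, and with cells thinned to 500 UMIs in 1.36, 4.38 and 3.77%. Erythrocytes are no background for this gene, since they held cycling cells as well, with a UMI of *mki67* in 10.9% of them.

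Among risers outside the cell cycle lists, the 10 with the largest rises were *dbf4b*, a partner of the replication kinase Cdc7, the histone genes *hist1h2a8* and *h2ax2* and 7 genes that the files name by clones only. Of the last, *si:ch1073-153i20.6*, which RefSeq lists as a synonym of *hist1h2a6*, stood at 279, 110, 36.0 and 24.7 CPM in precursors and at 5.13, 2.44, 0.749 and 0.345 CPM in Endothelial cells. It was higher in precursors in every library, and in both groups higher at 48 than at 72 hpf (log2 difference 5.79 ± 0.19). Histone genes lie in repeated, nearly identical copies, and reads that fit several copies were not counted, so the level of any single copy is uncertain. The level of *dbf4b* was 39.6, 33.4, 44.2 and 51.8 CPM against 1.16, 0.731, 0.874 and 1.38 CPM, with no overlap (log2 difference 5.47 ± 0.25, edgeR adjusted p = 2.5e-11). At least *dbf4b* and the named histone genes belong to replication by their function, although the cell cycle lists did not hold them.

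**Figure D2:**
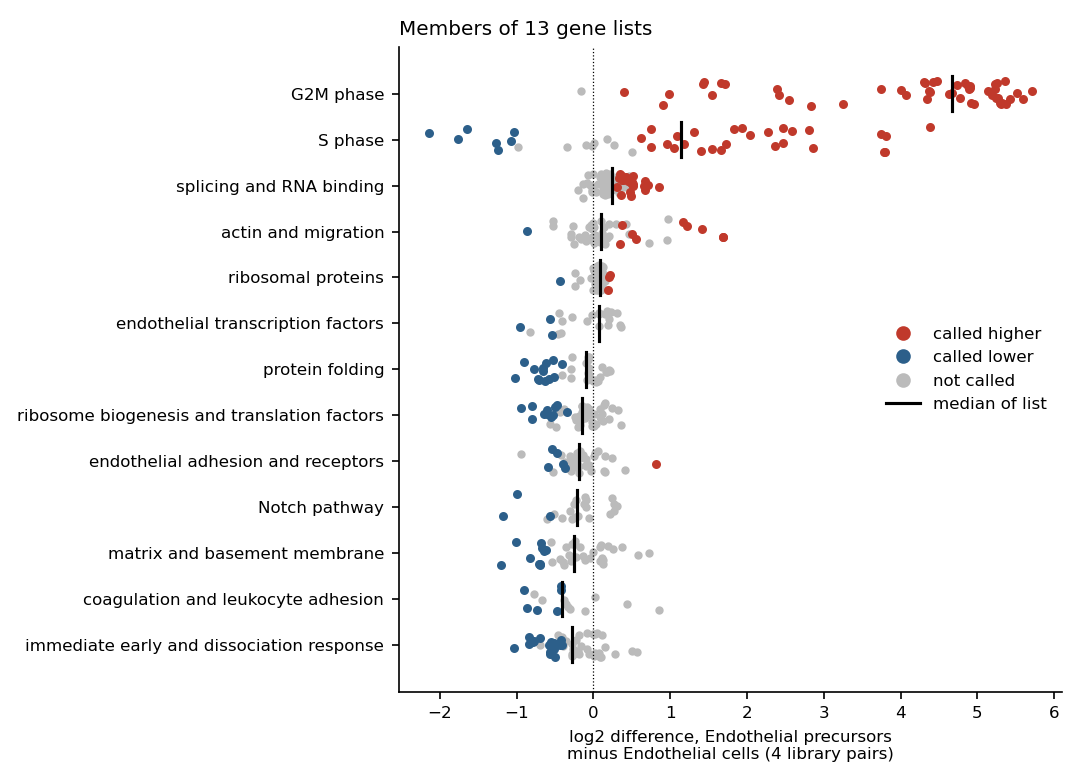
Log2 difference between precursors and Endothelial cells of each tested member of 13 gene lists, with called genes in red (higher) or blue (lower), others in grey, and the list's median as a black bar. The G2M list lies at a median of 4.67, the S phase list is divided, and the called genes of the protein folding, matrix and immediate early lists all lie below 0.

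To see what differed besides the cell cycle, comparisons between cells chosen by phase call or by mitosis UMIs were added. Only 3 precursors were called G1, so G1-called cells could not be compared. Among S- or G2M-called cells of both groups 805 of 7937 genes were higher in precursors (10.1%) and 493 lower (6.21%), 16.4% in all. Among G2M-called cells alone 434 of 5858 genes were higher in precursors (7.41%) and 326 lower (5.57%), 13% in all. Among cells of both groups with 3 or more mitosis UMIs 326 of 5390 genes were higher (6.05%) and 91 lower (1.69%), 7.74% in all, of which 184 and 84 lay outside the cell cycle lists. The cell cycle was not evened out by this choice, since 142 of 242 tested cell cycle genes were still higher in precursors and 7 lower, the 18 genes that chose the cells among them. Nor was it among G2M-called cells, with 169 of 237 higher and 5 lower. G2M-called Endothelial cells also held fewer UMIs per cell than G2M-called precursors in each library. In 48 hpf sqet31Et they held 763730 UMIs in 343 cells, against 1380689 in 222. The Endothelial cells with 3 or more mitosis UMIs numbered 111, 210, 79 and 34, with 466935, 1163897, 229803 and 47080 UMIs, so low genes rest on few UMIs there. The last comparison used neither group. In the clusters other than both groups, AV endocardium and AV cushion, cells with 3 or more mitosis UMIs were set against equal numbers of cells of the same cluster with none, and 364 of 7694 genes were higher (4.73%) and 86 lower (1.12%), 5.85% in all. The comparisons of G2M-called cells, of cells with mitosis UMIs and of other clusters were chosen after the data had been seen. The first 3 of the 4, that of cells with mitosis UMIs included, share cells with the comparison of all cells, so their values are set side by side and their overlap is not counted.

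For the comparison in other clusters, which shares no cell with the others, the lists of called genes outside the cell cycle lists were compared. Of the 775 genes that rose in precursors 594 were tested in the other clusters. Of the 594, 155 also rose in the cycling cells there (20% of the 775), which is 77.5% of the 200 that rose there. Those 200 were out of 7426 genes outside the cell cycle lists tested there. Of the 610 genes that fell in precursors 527 were tested there. Of the 527, 24 fell there (3.93% of the 610), which is 27.9% of the 86 that fell there, out of the same 7426. Some entries of the cell cycle lists, among them *cenpa*, *incenp* and *brca1*, matched no symbol, so cell cycle genes may remain outside the lists. The numbers of cells, the depth and the mixture of cell types differ between the comparisons, and fewer genes were called there.

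Of 35 tested genes of protein folding, a list of chaperones of the cytosol, the mitochondria and the endoplasmic reticulum, 13 fell in precursors and none rose, where 6.89% of all genes fell. The median of the list was -0.09, and most of its members were not called. The level of *canx*, the lectin chaperone calnexin, was 91.4, 62.6, 77.1 and 44.4 CPM in precursors and 199, 158, 136 and 122 CPM in Endothelial cells. All 4 precursor values were below all 4 of the other group (log2 difference -1.02 ± 0.14, edgeR adjusted p = 4.3e-05), and in cells with mitosis UMIs the difference was -0.80 ± 0.20 (adjusted p = 0.016). The level of *hsp90b1*, the endoplasmic reticulum member of the HSP90 family, was 66.9, 38.1, 107 and 153 CPM against 147, 141, 198 and 166 CPM. It was lower in 4 of 4 libraries, although the groups overlapped through the 72 hpf sqet33mi59BEt library (log2 difference -0.91 ± 0.19). The lectin chaperone *calr* (80.5, 63.7, 66.8 and 106 CPM against 187, 160, 177 and 144 CPM, -1.01 ± 0.15) and *calr3a* (72.3, 76.9, 91.5 and 114 CPM against 158, 169, 178 and 130 CPM, -0.78 ± 0.15) did not overlap. Of these, *calr* was outside the list and was chosen after its values were seen, as were *crtap*, which acts with prolyl 3-hydroxylase on collagen (-1.04 ± 0.16), the translocon genes *ssr1* (-0.88), *sec63* (-0.46) and both copies of *sec61a1* (-0.62 and -0.50) and the signal recognition particle receptor subunit *srprb* (-0.74).

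The members of the folding list that fell were of 2 kinds. Besides the endoplasmic reticulum proteins *canx*, *hsp90b1*, *calr3a*, *calr3b*, *hspa5* and *pdia6*, the heat shock genes *hspb1*, *bag3*, *dnajb1b*, *hsp70l*, *hsp70.1* and *hsp70.3* and the cytosolic *hspa4* (ENSDARG00000004754) fell. In cells with mitosis UMIs 6 of 34 tested members were lower (1.69% of all genes), and among G2M-called cells 13 of 34 were (5.57% of all genes). In the cycling cells of other clusters none of 35 was called, with a median of -0.10, and the values of *canx* and *hsp90b1* there were -0.19 ± 0.15 and -0.10 ± 0.14. The differences between those values and the ones in precursors were not tested. A UMI of *canx* was found in 18.8% of precursors, 31.1% of Endothelial cells and 6.31% of Erythrocytes, and with cells thinned to 500 UMIs in 3.59, 7.85 and 3.99%. Whether Erythrocytes express *canx* was not tested, so their share is no measure of background.

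**Figure D3:**
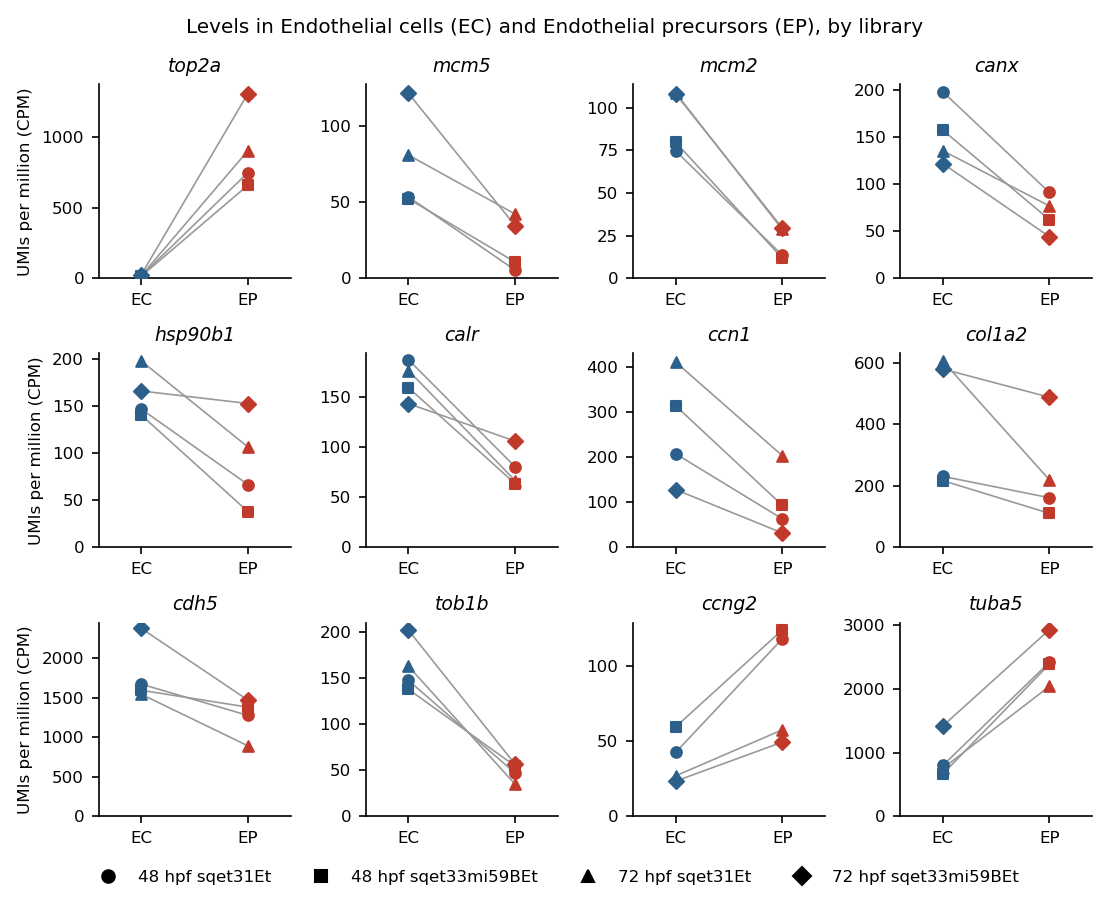
Levels in CPM of 12 genes in Endothelial cells (EC, blue) and precursors (EP, red), with a line joining the 2 groups of a library. The lines of *mcm5*, *canx*, *ccn1*, *col1a2*, *cdh5* and *tob1b* fall in 4 of 4 libraries, and those of *top2a*, *ccng2* and *tuba5* rise in 4 of 4.

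Immediate early genes are induced within minutes by growth factors and by tissue dissociation. Of 48 tested genes of this list 16 fell in precursors and none rose, with a median of -0.27, where 6.89% of all genes fell. Under library totals 22 of 48 fell, beside 13% of all genes. The difference was lower at 72 than at 48 hpf in 9 of 48 (2.13% of all genes). Without the *blf* cells described below it was so in 3 of 47 (1.35% of all genes). In cells with mitosis UMIs 9 of 43 were lower, with a median of -0.39, beside 1.69% of all genes. The level of *ier2b* was 487, 555, 335 and 207 CPM in precursors and 996, 1007, 537 and 520 CPM in Endothelial cells. It was lower in each library, and both groups were lower at 72 hpf (log2 difference -0.83 ± 0.12, edgeR adjusted p = 5.8e-05). The AP-1 subunit *jun* was at 1135, 1752, 921 and 884 CPM against 1775, 2898, 1396 and 1593 CPM (-0.58 ± 0.08), and the zinc finger factor *egr3* fell by 1.03 on the log2 scale. The secreted YAP target *ccn1*, counted in another list, was at 63.5, 93.5, 203 and 32.1 CPM against 207, 314, 411 and 128 CPM. Its level varied between libraries more than between the groups, and within each library precursors were lower (-1.41 ± 0.15, edgeR adjusted p = 2.1e-06). In the cycling cells of other clusters *ccn1* was at -0.66 ± 0.32 and none of 48 genes of the list was called. Within Endothelial cells alone, however, 22 of 48 were lower and 2 higher in S- or G2M-called than in G1-called cells (median -0.18). There 7.52% of all genes were lower and 8.47% higher. The part of the cell cycle in the falls of this list was not tested.

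Some matrix genes were lower in precursors and some also in the cycling cells of other clusters. Of 38 tested genes of matrix and basement membrane 10 fell in precursors and none rose (median -0.26), where 6.89% of all genes fell. In the cycling cells of other clusters 6 of 38 fell and none rose (median -0.48), beside 1.12% of all genes. The level of *col1a2*, a chain of type I collagen, was 162, 111, 220 and 489 CPM in precursors and 231, 217, 606 and 580 CPM in Endothelial cells. It was lower in every library, and higher at 72 hpf in both groups, which overlapped (-0.68 ± 0.16). Without the 72 hpf sqet31Et library its difference was -0.43 and not called. In cycling cells of other clusters *col1a2* fell by 0.83 on the log2 scale and *col1a1* by 0.87. The thrombospondin gene *thbs1* (ENSDARG00000103775) fell by 1.01 in precursors and was at -0.00 ± 0.19 in the other clusters. The hyaluronan synthase *has2*, which makes the ground substance of the cardiac cushions, was at 68.9, 102, 36.0 and 64.2 CPM against 133, 170, 111 and 93.5 CPM (-0.82 ± 0.16). Also lower were *col5a1* (-0.71), *col23a1b* (-0.70), *mmp14* (ENSDARG00000002235), *sparc* and *timp2* (ENSDARG00000075261).

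Genes by which the endothelium acts on blood were lower in part. Where 6.89% of all genes fell, 6 of 16 tested genes of coagulation and leukocyte adhesion did and none rose, with a median of -0.40. Those were *gas6* (-0.91), *anxa2* (-0.86), *pros1*, which encodes protein S (-0.73), *f8*, *tfpi* and *cd63*. For *anxa2* the groups overlapped at the earlier stage, and precursors were lower in both libraries of 72 hpf (change of the difference -1.98, described below). The difference was lower at 72 hpf than at the earlier stage in 4 of 16 genes of the list (2.13% of all genes). Without the *blf* cells described below it was so in 3 of 16 (1.35% of all genes). The level of *f8*, coagulation factor VIII, was 649, 471, 309 and 570 CPM against 831, 673, 591 and 869 CPM. It was lower in 4 of 4 libraries (-0.48 ± 0.11), and in cells with mitosis UMIs it fell by 0.63. Over all cells it was not called without the sqet31Et (-0.34) or the sqet33mi59BEt (-0.45) library of 72 hpf. Of 25 tested genes of endocytosis 7 fell, namely the lysosomal proteases *ctsz*, *ctsd*, *ctsla* and *lgmn* and the caveolar genes *cav1*, *cav2* and *cavin1* (ENSDARG00000059362), while the clathrin light chain *clta* rose by 0.48, a call that was lost under library totals.

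Of 36 tested genes of endothelial adhesion and receptors 5 fell and 1 rose (median -0.19, all genes -0.04), where 6.89% of all genes fell and 11.2% rose. The count of falls depended on the scaling and on the cells compared. Under library totals 10 of 36 were lower (13% of all genes). Among G2M-called cells 10 of 33 were (5.57% of all genes), and in cells with mitosis UMIs 3 of 33 (1.69% of all genes). The difference was lower at 72 than at 48 hpf in 9 of 36 (median change -0.42, 2.13% of all genes), and in 2 of 36 without the *blf* cells described below (1.35% of all genes). The differences of *cdh5* and *tie1*, whose levels are given above, were -0.40 ± 0.11 and -0.37 ± 0.12 (edgeR adjusted p = 0.014 and 0.036), and *fli1* was at 0.23 ± 0.12 (adjusted p = 0.21). With 1 of the 72 hpf libraries left out neither *cdh5* (-0.28 without sqet31Et, -0.31 without sqet33mi59BEt) nor *tie1* (-0.30 in both cases) was called, nor was *tie1* without the 48 hpf sqet31Et library (-0.41). In cells with mitosis UMIs *cdh5* fell by 0.43, and in the cycling cells of other clusters it was at -0.51 ± 0.15 and not called (adjusted p = 0.076). The other genes that fell were *myct1b*, *ecscr* and *f8*. The guidance receptor *robo4* was the one that rose, at 35.5, 48.3, 18.5 and 51.8 CPM against 20.03, 25.6, 15.97 and 35.9 CPM. It was higher in each library (0.82 ± 0.18), but at 0.37 ± 0.26 and not called in cells with mitosis UMIs, nor over all cells without the 48 hpf sqet33mi59BEt library (0.66). The vessel genes *kdrl*, *egfl7* and *pecam1a* were at -0.18, -0.17 and -0.21 and not called, while *pecam1b*, outside the list, fell by 0.93. Of 23 tested endothelial transcription factors 3 fell (*ets1*, *klf6* and *bcl6b*) and none rose, with a median of 0.07.

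Of 23 tested genes of the endocardium 7 fell and 1 rose (median -0.26), where 6.89% of all genes fell and 11.2% rose. Within Endothelial cells alone, 12 of 23 were lower and 1 higher in S- or G2M-called than in G1-called cells (median -0.32). There 7.52% of all genes were lower and 8.47% higher. The part of the cell cycle in the falls of this list was not tested. The annexin *anxa5b*, a gene of the atrioventricular canal, was at 13.6, 15.5, 15.4 and 54.3 CPM in precursors and at 42.3, 41.9, 70.0 and 140 CPM in Endothelial cells. It was lower in each library, and the groups overlapped only through the 72 hpf sqet33mi59BEt precursors (-1.51 ± 0.18, edgeR adjusted p = 8.3e-06). In cells with mitosis UMIs it fell by 1.29, and in the cycling cells of other clusters it was at -0.37 ± 0.19. The endothelin *edn1* fell by 0.83, *anxa1* by 1.05, *tbx20* by 0.64 and *hand2*, a heart field factor, by 0.50, while the mesenchymal factor *twist1b* rose by 0.70. The difference of *hand2* was at -0.07 among G2M-called cells and not called.

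Signalling pathways of the endothelium held few called genes. For the counts that follow, 6.89% of all genes fell and 11.2% rose. In the Notch pathway 3 of 22 tested genes fell and none rose, namely the ligands *jag1b* and *jag2b* and the target *hey2*. The level of *hey2*, a transcriptional repressor known in zebrafish as gridlock, was 6.82, 13.1, 6.17 and 9.87 CPM against 18.2, 27.4, 20.2 and 26.6 CPM, without overlap (-1.18 ± 0.23, edgeR adjusted p = 0.0014). The ligand *dll4* and the feedback gene *nrarp* (ENSDARG00000091419) were at -0.10 and -0.28 over all cells and not called, whereas in cells with mitosis UMIs they fell by 0.66 and 1.07. In the VEGF and sprouting list 3 of 25 genes fell, and the tip cell gene *esm1* (25.9, 13.1, 1.03 and 2.47 CPM against 42.5, 59.9, 3.12 and 5.52 CPM) was lower in each library, and in both groups lower at 72 than at 48 hpf (-1.24 ± 0.27). Its call was lost without the 48 hpf sqet33mi59BEt library, where the difference was -0.69. In the same list the apelin receptor *aplnra* fell by 0.58 and its ligand *apln*, described below, rose. In the BMP and TGF beta list 4 of 33 fell, among them *bmp6* (-0.69) and the inhibitor *smad6* (ENSDARG00000031763, -0.54), and in the Wnt and YAP list 3 of 22 fell, namely *ccn1*, *wnt11* (-0.96) and *axin2* (-0.54).

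Genes that restrain the cell cycle were called in both directions. Of 37 tested genes of cell cycle exit and p53 response 3 rose and 8 fell (median -0.03), where 11.2% of all genes rose and 6.89% fell. The antiproliferative *tob1b* was at 47.1, 54.8, 34.9 and 56.8 CPM in precursors and at 148, 138, 163 and 202 CPM in Endothelial cells. No precursor value came near the lowest of the other group (-1.59 ± 0.16, edgeR adjusted p = 1.1e-06), and in cells with mitosis UMIs *tob1b* fell by 1.33. Its relatives *btg1* and *btg2* fell by 0.43 and 0.55. The inhibitor of cyclin-dependent kinases *cdkn1a* rose, with 46.4, 41.7, 96.6 and 83.9 CPM against 6.87, 10.6, 29.0 and 38.7 CPM (2.02 ± 0.21), and was at 0.61 ± 0.23 and not called in cells with mitosis UMIs. The cyclin *ccng2*, a FOXO target that is known to slow the cycle, stood at 118, 124, 57.5 and 49.4 CPM against 42.5, 59.5, 27.0 and 23.5 CPM. It was higher in 4 of 4 libraries (1.33 ± 0.15, edgeR adjusted p = 2.6e-06) and in cells with mitosis UMIs as well (1.49 ± 0.24), while within Endothelial cells it fell by 0.59 from G1-called to S- or G2M-called cells.

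Of 51 tested genes of ribosome biogenesis and translation factors 11 fell over all cells and none rose (median -0.15), where 6.89% of all genes fell. Without the *blf* cells described below 18 of 51 fell, where 8.04% of all genes did. Among cells chosen by phase call or mitosis UMIs few were called, with 2 of 50 lower in G2M-called cells (5.57% of all genes) and 1 of 48 in cells with mitosis UMIs (1.69% of all genes). The translation repressor *eif4ebp1* was at 59.4, 65.5, 68.9 and 118 CPM against 150, 154, 123 and 200 CPM, below it in every pair and with no overlap (-0.94 ± 0.14). The nucleolar genes *gnl2*, *rrp1*, *ddx21*, *nop2*, *nolc1*, *ebna1bp2*, *nop10* and *npm1a* fell by 0.47 to 0.80 on the log2 scale. In the cycling cells of other clusters none of 51 was called and the median was 0.14. Outside the list, the ribosome maturation factor *mdn1* was among the 10 largest falls of all genes, at 6.14, 4.77, 8.22 and 14.8 CPM against 29.0, 25.3, 31.9 and 38.3 CPM, with no overlap (-1.93 ± 0.24, edgeR adjusted p = 9.5e-06). Its value in the other clusters was -0.20 ± 0.23. The remaining largest falls were of *folr2*, a folate receptor (-2.60), the chemokine *ccl38.1* (-2.15), *abhd4*, *tmem45a*, *klhl24* (ENSDARG00000008275) and *zbtb18*, besides *tob1b*, *anxa5b* and *ccn1*.

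**Figure D4:**
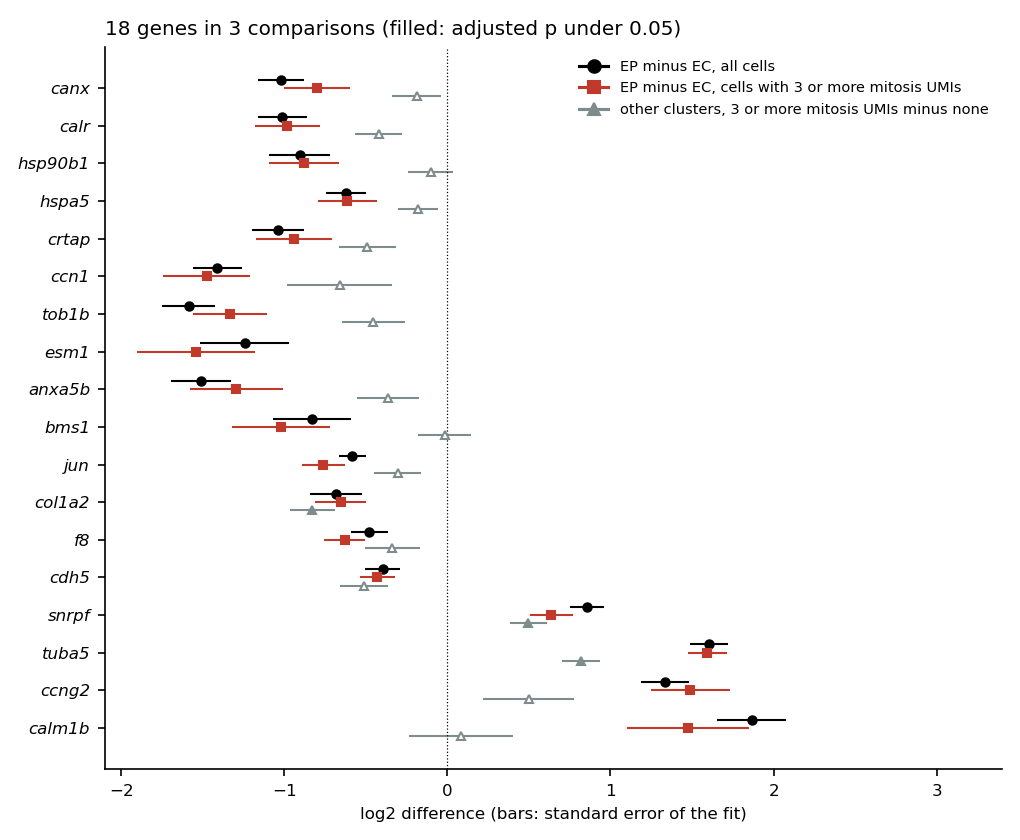
Log2 differences with standard errors of 18 genes, chosen after their values were seen, in precursors against Endothelial cells over all cells (black), in cells with 3 or more mitosis UMIs (red), and in cycling against resting cells of other clusters (grey); filled symbols have an adjusted p under 0.05. For *canx*, *calr*, *hsp90b1*, *tob1b*, *anxa5b* and *bms1* the black and red values are all below -0.7, while the grey ones lie between -0.45 and -0.02. The grey values of *col1a2*, *ccn1* and *cdh5* lie below that range.

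Genes of tubulin, actin and splicing were among those called higher in precursors. Tubulin genes encode the protein from which the spindle is built, and the part of the cell cycle in their differences was not tested. Of 10 tested 5 were called higher (11.2% of all genes) and none lower, and in the cycling cells of other clusters 6 of 11 were higher (4.73% of all genes). The level of *tuba5* was 2413, 2383, 2036 and 2922 CPM against 797, 665, 752 and 1415 CPM, with no overlap (1.60 ± 0.12, edgeR adjusted p = 1.3e-08). It rose by 1.59 in cells with mitosis UMIs and by 0.82 in the cycling cells of other clusters, and *tuba1b* and *tubb2b* (ENSDARG00000098591) rose by 2.15 and 2.17. The last was named in a cell cycle list but not matched there, so it counts as outside those lists. Of 49 tested genes of actin and migration 9 rose and 1 fell, where 11.2% of all genes rose. Under library totals 8 rose and 6 fell (median -0.03), and in cells with mitosis UMIs 3 of 42 were higher, beside 6.05% of all genes. Cytoplasmic actin *actb1* was at 3985, 5236, 2676 and 2085 CPM against 3214, 3739.7, 1799 and 1631 CPM, higher in every library (0.55 ± 0.07), and was at -0.00 ± 0.11 in the other clusters. Both copies of *marcks* (ENSDARG00000004049 and ENSDARG00000008803), an actin-binding substrate of protein kinase C, rose (1.69 and 1.42), although in cells with mitosis UMIs neither was called (0.75 ± 0.24 and 0.36 ± 0.18). The calmodulin gene *calm1b* was at 26.6, 20.9, 47.3 and 32.1 CPM against 9.67, 5.28, 11.2 and 13.5 CPM (1.87 ± 0.21). It rose by 1.48 in cells with mitosis UMIs and was at 0.08 ± 0.32 in the other clusters.

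Of 61 tested genes of splicing and RNA binding 21 rose in precursors and none fell (median 0.25), where 11.2% of all genes rose. Under library totals 9 rose and none fell, where 9.1% of all genes rose. The level of *snrpf*, a core protein of the spliceosomal snRNPs, was 491, 527, 627 and 1044 CPM against 308, 371, 328 and 588 CPM, higher in every pair (0.85 ± 0.10, edgeR adjusted p = 1.0e-05). It rose by 0.64 in cells with mitosis UMIs and by 0.50 in the cycling cells of other clusters, where 2 of 61 genes of the list were called higher. There 4.73% of all genes were higher. In cells with mitosis UMIs 1 of 60 was called higher, beside 6.05% of all genes.

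Few metabolic genes were called over all cells, where 11.2% of all genes rose and 6.89% fell. Of 80 tested ribosomal protein genes 3 rose (*rplp0*, *rplp1* and *rps12*, by 0.20 to 0.21) and *rps27l* fell by 0.43. None of the 3 rises was called under library totals or without the *blf* cells. The change of these genes between stages is given below. Of 87 nuclear genes of oxidative phosphorylation 2 rose and 1 fell, and in glycolysis *gapdhs* alone rose of 17 tested. Of the 13 mitochondrially encoded genes *mt-nd1* alone was called over all cells (-0.27 ± 0.08), and it was not called without the *blf* cells. Among G2M-called cells 12 of 13 were lower in precursors (median -0.66), beside 5.57% of all genes. The Endothelial cells of that comparison were the shallower in each library, and the part of depth was not tested. In cells with mitosis UMIs none was called. Under library totals 9 of 13 were lower over all cells, beside 13% of all genes.

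Part of the blood gene signal rested on a small set of cells. The zinc finger gene *blf*, which is needed for blood formation, was at 0.682, 3.57, 327 and 244 CPM in precursors and at 0.815, 0.975, 5.99 and 24.2 CPM in Endothelial cells. It was thus high in precursors at 72 hpf only. Among the 684 precursors at 72 hpf 42 cells (6.14%) held 2 or more *blf* UMIs, 27 in the sqet31Et and 15 in the sqet33mi59BEt library, against 0 of 569 at 48 hpf. Of the 6247 Endothelial cells at 72 hpf 11 did (0.176%), and of the cells named Hematopoietic precursor 180 of 334 at 72 hpf (53.9%) and 0 of 64 at 48 hpf. In all annotated cells there were 448 such cells at 72 hpf and 1 at 48 hpf. The 42 cells were deep, with median UMIs of 6014 and 3037 against 1804 and 996 in the other precursors of their libraries, and held 20% and 12.8% of the UMIs of precursors there. Their pooled level of *cdh5* was 85.1 CPM and that of *tie1* 20.3 CPM, and their *mki67* level was 819 CPM. All cells had passed the authors' filter for doublets, and whether some are doublets was not tested.

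With the 42 cells and the 11 in Endothelial cells left out, a comparison added after the data had been seen, 1002 genes were higher (11.2%) and 721 lower (8.04%) of 8969 tested, 19.2% in all. Outside the cell cycle lists 702 of the 775 risers and 579 of the 610 fallers were still called in the same direction. Profilin *pfn1*, which feeds actin monomers to filaments, was at 97.6, 136, 1502 and 1967 CPM in precursors against 121, 145, 122 and 273 CPM. High at 72 hpf only, it rose by 1.69 on the log2 scale over all cells and by 0.60 without the *blf* cells. The apelin ligand *apln* (4.09, 7.75, 65.8 and 59.2 CPM against 11.4, 6.74, 10.6 and 10.7 CPM) was called at 1.39 ± 0.44 and stood at -0.20 without them. Likewise the zinc finger gene *znfl2a* went from 2.34 to 0.81 and the biliverdin reductase *blvrb* from 1.91 to 0.46, neither of them called any longer. The difference of *blf* itself went from 4.23 to 0.95 and was no longer called, a drop that follows from choosing the cells by *blf* UMIs. The 29 genes of blood formation summed to between 495 and 1648 CPM in precursors and to between 563 and 966 CPM in Endothelial cells, and without the *blf* cells to between 495 and 923 CPM in precursors. The endothelial genes *cdh5*, *tie1* and *bcl6b* were also no longer called without them, at -0.30 (edgeR adjusted p = 0.052), -0.28 (adjusted p = 0.088) and -0.43 (adjusted p = 0.064), nor were *jag1b* and *mmp14*. The falls given above for protein folding, immediate early and MCM genes and for *tob1b*, and the rise of *ccng2*, were still called.

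**Figure D5:**
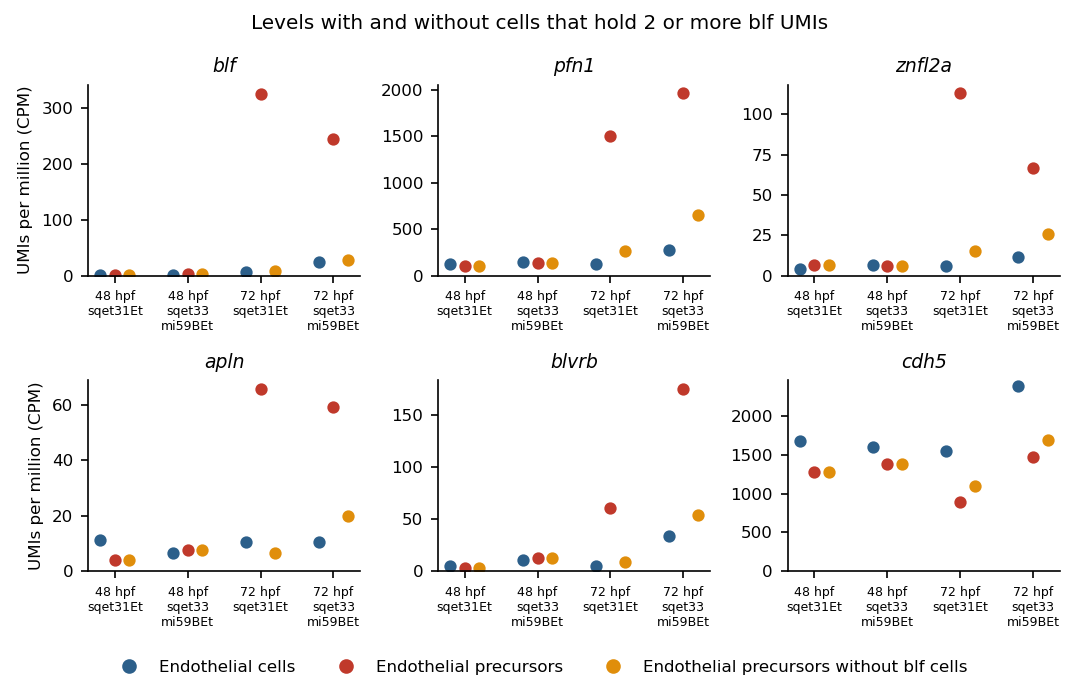
Levels in CPM of 6 genes by library in Endothelial cells (blue), precursors (red) and precursors without the 42 cells that hold 2 or more *blf* UMIs (orange). At 48 hpf red and orange coincide, since there are no such cells, and at 72 hpf *apln* drops from 65.8 and 59.2 CPM to 6.43 and 19.8 CPM.

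The difference between precursors and Endothelial cells itself differed between 48 and 72 hpf in 274 of 8987 genes (3.05%, edgeR interaction of group and stage with 2 pairs a stage), of which 83 had the higher difference at 72 hpf (0.924%) and 191 the lower (2.13%). Without the *blf* cells it did so in 143 genes, 22 (0.245%) and 121 (1.35%) of them, 1.59% of 8969 in all. Among the 121 were 33 of 80 tested ribosomal protein genes (median change -0.29), while with the *blf* cells 1 of 80 was called lower (median change -0.12). The annexin *anxa2* was at 1169, 1729, 181 and 523 CPM in precursors and at 1381, 1667, 862 and 1704 CPM in Endothelial cells. The groups overlapped at 48 hpf, and at 72 hpf precursors were lower in both libraries (change of the difference -1.98 ± 0.14 on the log2 scale, edgeR adjusted p = 3.0e-10). Its partner *s100a10b* (1535, 3326, 687 and 1002 CPM against 1837, 2993, 1712 and 2299 CPM) changed in the same way (-1.31). The keratin *krt18a.1* changed by -1.20, and the water and peroxide channel *aqp8*, with 297, 1035, 73.0 and 151 CPM against 216, 507, 293 and 491 CPM, was higher in precursors at 48 hpf and lower at 72 hpf (-2.73). The cytosolic chaperone *hsp90aa1* went the other way, at 459, 201, 117 and 178 CPM against 1149, 580, 86.0 and 104 CPM (1.91). These 5 changes remained called without the *blf* cells, as did that of *pfn1*, which went from 3.34 to 1.26. The 19 epithelial genes summed to 8487, 12767, 2941 and 4943 CPM in precursors and to 10331, 13384, 5893 and 9623 CPM in Endothelial cells, so they too were lower in precursors by more at 72 hpf, and their part in these changes was not tested.

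Precursors made up 10.2, 12.7, 9.86 and 9.88% of the cells of both groups, with exact binomial 95% intervals of 8.99 to 11.5, 11.5 to 14.0, 8.94 to 10.8 and 8.85 to 10.995%, which cover counting error only. At 48 hpf the mean share was 11.4% ± 1.77 (SD, n = 2), and at 72 hpf it was 9.87% ± 0.0171 (SD, n = 2). The difference of -1.58 percentage points gave p = 0.333 in an exact permutation test (two-sided), the smallest p that 2 libraries against 2 allow, so this design cannot reach 0.05.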

How the data were processed

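The authors sequenced 4 libraries made with the 10x Genomics 3' chemistry, and, per their methods, ran bcl2fastq and Cell Ranger on GRCz11 with its protein-coding genes and both reporters and Seurat. They deposited counts, which are whole UMIs per gene and barcode before filtering, and the percent of mitochondrial UMIs of each cell, with cluster names, phase calls and a singlet mark. Per their methods, the annotated cells had passed a lower and an upper cut on genes detected. They had also passed upper cuts on mitochondrial and hemoglobin content and a doublet filter. The part of these cuts in the differences was not tested. Reads that map to several genes were not counted.

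Counts were summed per group and library over all cells (at least 10 per sum) and tested with edgeR 4.0.16 (R 4.3.3; TMM, filterByExpr, quasi-likelihood with the library as a replicate block, Benjamini-Hochberg over all genes tested, threshold 0.05). Each library holds both groups, so the pairing is by construction. DESeq2 1.42.0 was an alternative. SE is that of the log2 difference. The authors' cell-level test was not used, since cells of a library are not replicates. The edgeR p-values measure how evenly a difference within libraries repeats over them. The libraries of a stage differed beyond counting error (chi-square per degree of freedom 84.5 and 107), so none is a copy of another. Cells were thinned without replacement (seed 11). No doublet caller was run.

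The groups, the gene lists (36, of which 6 are cell cycle lists) and the rules were chosen with earlier results of these data known. Named genes were the 10 largest rises and falls outside the cell cycle lists among genes called, with the same direction in 4 libraries and at least 20 CPM in the higher group, the 6 largest cell cycle risers, up to 3 per list and direction, *cdh5*, *tie1* and *fli1*, and the 6 top genes of the stage interaction. All other genes named, the comparisons of G2M-called cells, of cells with mitosis UMIs and of other clusters, and the removal of *blf* cells were chosen after their values were seen. A symbol was found for 23608 of 25434 identifiers, and symbols held by several identifiers are printed with the identifier or were left out of the lists. Of 1363 list entries 175 were unmatched. The comparison of G1-called cells and promoter motifs were not run.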

Additional observations from a re-analysis of the deposited data

Results flagged for a closer look

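The 4 paired differences of a gene (log2 of CPM plus 1, precursors minus Endothelial cells) were checked for a library that stands apart from the other 3 by Dixon's ratio, the gap to the nearest value over the range, against its 95% critical value for 4 values. The same check was made for 146 named genes, for the share of precursors and for the medians of UMIs, genes detected and mitochondrial percent per cell. Chance passes this limit for about 1 set of values in 20, so several passes are due by chance over that many sets. It was passed by *si:ch211-113a14.26* (0.870), *ccng2* (0.939), *hand2* (0.851), *rplp1* (0.842), *col23a1b* (0.835) and *kif4a* (0.835), by the share of precursors in the cells of both groups (0.882, where the 48 hpf sqet33mi59BEt library is the high one) and by the difference in mitochondrial percent (0.862, where the 72 hpf sqet31Et library is the high one).

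The difference between precursors and Endothelial cells changed between 48 and 72 hpf, by the interaction term of the edgeR fit, in *anxa2* (-1.98 on the log2 scale), *pfn1* (3.34), *aqp8* (-2.73), *krt18a.1* (-1.20), *s100a10b* (-1.31) and *hsp90aa1* (1.91). Without cells that hold 2 or more *blf* UMIs the value of *pfn1* was 1.26.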

How the results depend on the processing

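Direction and call were compared between settings for each count of called genes and for 146 named genes. Over all cells 1627 genes were called, and 1104 to 1433 with 1 library left out, 555 with no replicate block (without the pairing of the groups within libraries), 2655 with no filter on low counts, 1027 with Endothelial cells drawn down to the number of precursors and 645 with cells thinned to 500 UMIs. DESeq2 called 1186 and DESeq2's size factors 1620, and the cell cycle genes left out, 1325. S- or G2M-called cells gave 1298, against 371 with no replicate block, 744 by DESeq2 and 769 to 1198 with a library left out. G2M-called cells gave 760, against 228 with no replicate block, 400 by DESeq2, 286 thinned and 420 to 802 with a library left out (420 without the 48 hpf sqet31Et library). Cells with 3 or more mitosis UMIs gave 417, against 173 with no replicate block, 249 by DESeq2, 657 with no filter and 249 to 504 with a library left out (249 and 261 without the sqet31Et and sqet33mi59BEt libraries of 48 hpf). Cycling cells of other clusters gave 450, against 114 with no replicate block, 1048 with no filter and 266 to 431 with a library left out. Phases within Endothelial cells gave 1620, against 149 with no replicate block, 710 by DESeq2 and 1102 to 1493 with a library left out. The stage interaction gave 274, against 96 by DESeq2, 143 without *blf* cells and 99 to 462 with a library left out (139 and 99 without the 48 hpf libraries), and with 1 library in a stage that stage is assumed to vary like the other. The cause of these shifts was not tested, other than that fewer libraries, cells or genes enter several of them.

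The difference in the share of precursors was -2.83 to -0.325 percentage points with a library left out, and that in median UMIs -460 to 773. Of the 146 named genes, 106 lost their call with no replicate block, 28 by DESeq2, 38 of 124 when thinned, and 29, 19, 36 and 34 with the libraries left out in their order of stage and line. Directions reversed for *apln* (-0.20) and for the stage change of *gp1bb* (-0.58) without *blf* cells, and for the difference in the share of cells with a UMI for *rplp0* (-0.0924 points) and *rps12* (-0.0995 points), and thinned for *rplp1* (-0.127 points) and *rps12* (-0.562 points). The comparison of G1-called cells and its alternatives were not run, since only 3 precursors were called G1. Over all cells depth limits genes under a few CPM, above all in the 72 hpf sqet33mi59BEt precursors with 405194 UMIs in all. Among cells with 3 or more mitosis UMIs it limits more genes. The smallest sum there, of 72 hpf sqet33mi59BEt Endothelial cells, held 47080 UMIs from 34 cells.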

Other observations

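The reporters of the transgenes were at low levels in both groups. *RFP*, expressed under the *myl7* promoter of cardiomyocytes, was at 25.2, 20.9, 24.7 and 2.47 CPM in precursors and at 29.6, 21.7, 16.8 and 15.5 CPM in Endothelial cells (log2 difference 0.05 ± 0.24, edgeR adjusted p = 0.91), and a UMI of it was found in 7.02% of precursors, 5.67% of Endothelial cells and 10.2% of Erythrocytes, whose median depths were 2158, 1833 and 667 UMIs. *EGFP* had a UMI in 3 of 1253 precursors and 26 of 10612 Endothelial cells, and in 7 of 1379 Erythrocytes, so its share in both groups was at or below that of a type that should lack it.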
